A study of Rattus norvegicus with 3 samples.

Results

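Cortical layer and neuron subtype genes were followed in motor cortex of 3 rats. They were taken as the rows whose gene name equals a member of a list of 42 genes known to mark upper-layer, deep-layer or interneuron populations, or excitatory neurons across layers. Of the 42, 41 matched, each in 1 row, out of 30957 rows in each file, and the expression of Rasgrf2 was not analysed here. The 41 comprised 7 upper-layer genes, 17 deep-layer genes, 9 genes of excitatory neurons across layers and 8 interneuron genes. All animals were male Sprague-Dawley rats in which brain blood supply had been cut off and restored (cerebral ischemia-reperfusion) and electroacupuncture, current passed through acupuncture needles, had been given at GB20. A time of 8 weeks is labelled, without its starting point. The labels number the animals 12, 24-4 and 33 and put them in a single group, so neither ischemia nor acupuncture could be set against a control, and only variation between treated rats was tested.

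The neocortex is built of layers of excitatory neurons that differ in where they send their axons. Upper-layer neurons mainly reach other cortical areas, while deep-layer neurons project to the striatum, thalamus, brainstem and spinal cord, and in motor cortex include the cells of the corticospinal tract. Layer identity is set by transcription factors that restrain each other, and inhibitory interneurons, which arise outside the cortex, carry separate sets of markers according to their origin in the medial or caudal ganglionic eminence. Many of these genes are also used by other cells, so a value in whole tissue is a sum over cell types. In such bulk samples, fewer cells of a type and less RNA per cell cannot be told apart.

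Levels were deposited as FPKM, fragments scaled to gene length and library size, which allows genes to be compared within a library. Estimated depths were 13000000 to 17230000 fragments, so at an FPKM of 1 each 1 kb of gene rested on 13 to 17.2 fragments, and the exact 95% Poisson interval in the shallowest library, rat 33, ran from 6.92 to 22.2 fragments. All 41 genes had a mean FPKM of at least 1, and were among 13754 genes at that level that were tested. General neuronal genes had their lowest value in rat 33 for 11 of 14 genes, against 28.9% of all genes tested. Their summed FPKM was 4958, 4540 and 2845 in rats 12, 24-4 and 33. Oligodendrocyte genes were highest in rat 33 for 10 of 10 and microglial genes for 9 of 9. Choroid plexus genes, from the epithelium that secretes cerebrospinal fluid, were highest in rat 33 and lowest in rat 24-4 for 8 of 8, against 20.7% of all genes. The part of these differences in the results below was not tested.

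Upper-layer genes had a median log2 range over rats of 2.10, and 6 of the 7 were highest in rat 12, against 0.61 and 23.8% over all genes tested. Groups were not tested against each other. Narrower lists left out some, but not all, genes known from other cell types or regions, and kept Sulf1. They held 2 upper-layer genes (Cux2 and Otof), of which 1 had a range of at least 1, and 13 deep-layer genes, of which 8 had. Wfs1, which encodes an endoplasmic reticulum membrane protein found in upper-layer neurons and in hippocampal field CA1, reached 41.3 (rat 12), 190.9 (rat 24-4) and 13.2 FPKM (rat 33). Mef2c, an activity-regulated transcription factor of excitatory neurons that microglia and interneurons also use, had 41.0, 18.7 and 3.99 FPKM in rats 12, 24-4 and 33. Lamp5, a membrane protein of upper-layer neurons that also marks a class of interneurons, had 119, 66.6 and 17.4. Their highest values exceeded the lowest 14.4-fold, 10.3-fold and 6.87-fold in FPKM. The 3 genes share their lowest value in rat 33, but the top rat is 24-4 for Wfs1 and 12 for Mef2c and Lamp5.

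Rorb, a nuclear receptor of layer IV neurons that astrocytes express too, reached 13.7 (rat 12), 2.42 (rat 24-4) and 3.63 FPKM (rat 33). Cux2, a homeodomain factor of upper layers, had 24.1, 10.9 and 9.38, and so stood high in rat 12 alone. Otof, which encodes the calcium sensor otoferlin and marks upper-layer neurons, had 8.39, 3.71 and 4.01. The same rat was highest for each of these genes, with the other rats close together for Cux2 and Otof. Cux1, a relative of Cux2 that many cell types express, had 5.38, 3.96 and 4.44, a 1.36-fold span that was the narrowest of the upper-layer genes.

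**Figure D1:**
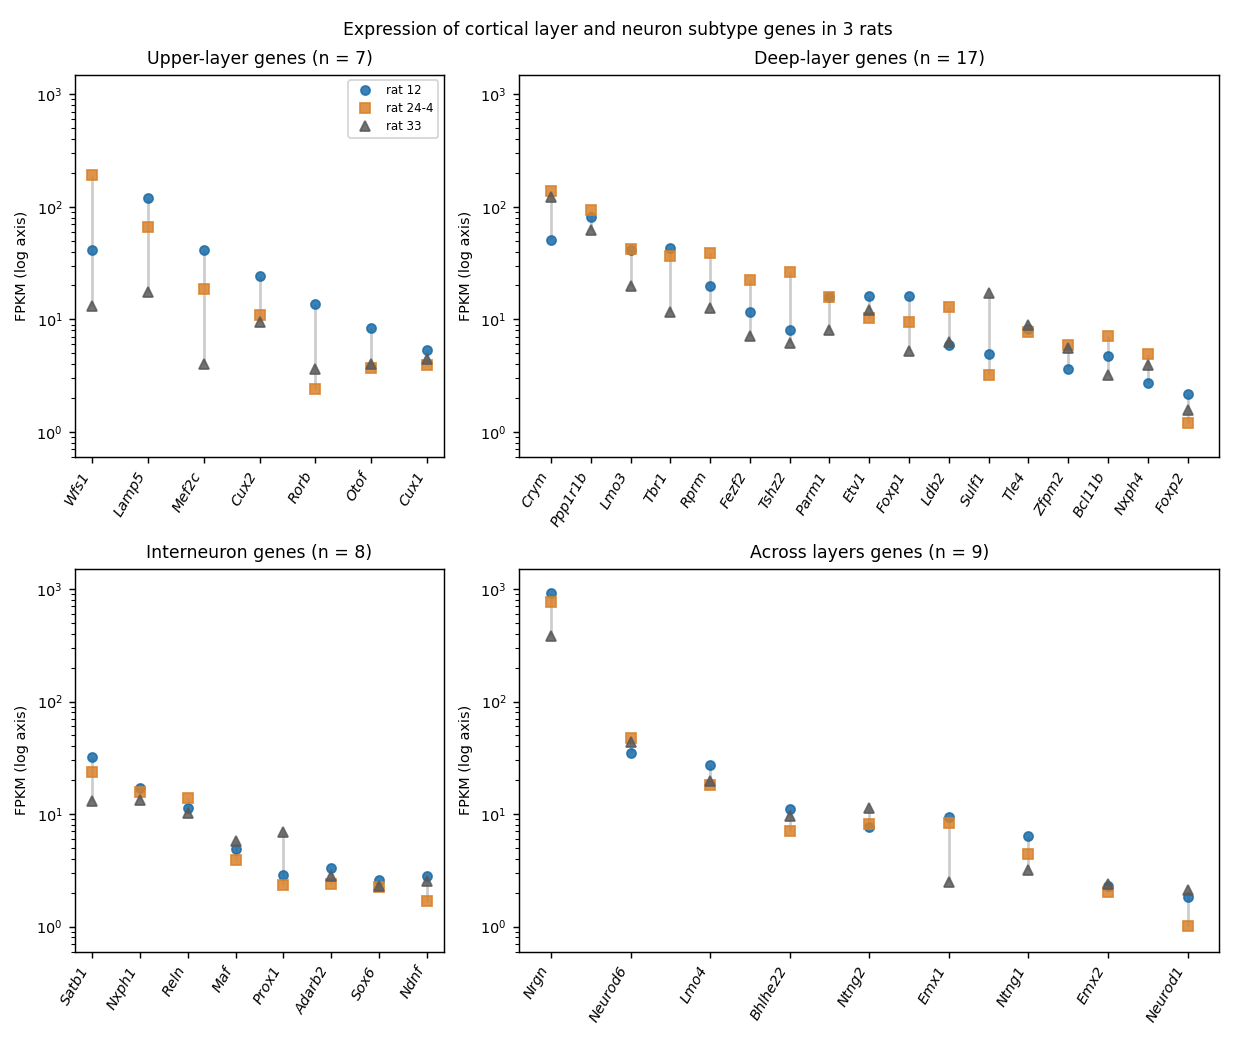
FPKM on a log axis of 41 genes in 3 rats, 1 point per rat, with grey lines from the lowest to the highest rat, ordered by mean within each group. Upper-layer genes such as Wfs1 and Mef2c span wide ranges, while Cux1 and most interneuron genes lie within narrow ones.

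Deep-layer genes had their highest value in rat 24-4 for 10 of 17 and their lowest in rat 33 for 9 of 17, against 34.2% and 28.9% of all genes tested. Crym, which encodes a thyroid hormone-binding crystallin, was the most abundant, with 50.6 in rat 12, 138 in rat 24-4 and 123 in rat 33. Ppp1r1b, a phosphatase inhibitor regulated by dopamine that is found in deep cortical neurons and more strongly in striatum, had 81.3, 93.7 and 62.2. Lmo3, a LIM-domain cofactor, had 41.8, 42.1 and 19.99. Of these genes, Crym was low in rat 12, and Lmo3 was low in rat 33 with the other rats level. Striatal marker genes other than Ppp1r1b gave summed FPKM of 100.5, 78.8 and 56.6 in rats 12, 24-4 and 33 over 9 genes, with Drd1 at 3.73, 3.91 and 4.33, so Ppp1r1b did not follow their order.

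Regulators of deep projection neurons fell into different orders. Fezf2, which directs neurons to a subcerebral fate, reached 11.6 (rat 12), 22.2 (rat 24-4) and 7.04 FPKM (rat 33). Bcl11b, a zinc-finger factor downstream of Fezf2 in corticospinal neurons, had 4.77, 7.07 and 3.23. Both were highest in rat 24-4 and lowest in rat 33. Tbr1, a T-box factor of corticothalamic neurons that represses Fezf2, had 43.1, 36.9 and 11.7, with rat 33 low and the other rats near each other. Tle4, a corepressor of corticothalamic neurons, had 8.23, 7.78 and 8.88, the smallest range of the deep-layer genes. The forkhead factor Foxp1 had 16.3, 9.55 and 5.27, whereas its relative Foxp2, of layer VI, had 2.16, 1.21 and 1.58 and was the lowest deep-layer gene by mean.

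Rprm, a cell-cycle inhibitor gene that marks layer VI, reached 19.8 (rat 12), 39.2 (rat 24-4) and 12.7 FPKM (rat 33). Tshz2, a zinc-finger homeobox gene of near-projecting deep neurons, had 8.04, 26.4 and 6.21. Nxph4, a neurexin ligand of the deepest cortical cells, had 2.71, 4.96 and 3.93. All 3 were highest in rat 24-4, as were Zfpm2 and Ldb2, cofactors of GATA and LIM factors. Sulf1, a heparan sulfate endosulfatase, went the other way, with 4.89, 3.18 and 17.01. Its order, rat 33 above rat 12 above rat 24-4, was also that of the summed FPKM of 8 choroid plexus genes (3357, 130 and 13294 in rats 12, 24-4 and 33) and of 6 meningeal genes, 1 of them listed at 0 in all rats (61.5, 34.7 and 189), whose part in the Sulf1 value was not tested. Etv1, an ETS factor of layer V, Parm1 and the other deep-layer genes not given by rat had mean FPKM between 5.02 (Zfpm2) and 13.2 (Parm1).

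Among genes of excitatory neurons across layers, Nrgn was by far the most abundant. Nrgn, which encodes the postsynaptic calmodulin-binding protein neurogranin, reached 930.7 (rat 12), 770.0 (rat 24-4) and 383 FPKM (rat 33), and held rank 46 of 13754 by mean. Neurod6, a basic helix-loop-helix factor of mature cortical pyramidal neurons, had 34.9, 47.0 and 43.3, and Lmo4, a LIM-only gene, had 27.5, 18.3 and 19.7. Nrgn was lowest in rat 33, while Neurod6 was lowest in rat 12 and stayed within a 1.35-fold span. Emx1, a homeobox gene of the dorsal telencephalon, had 9.47, 8.32 and 2.47, and so was low in rat 33 alone. Its relative Emx2, which astrocytes also express, had 2.28, 2.02 and 2.37.

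Neurod1, a relative of Neurod6 used in early neuronal differentiation, had 1.81 in rat 12, 1.02 in rat 24-4 and 2.11 in rat 33, the lowest mean of all 41 genes. A further unnamed row, Rn60_3_0730.2, overlaps Neurod1 on the same strand and had 0.558, 0 and 1.10, so how fragments were divided between them is uncertain. Ntng1, a netrin-G adhesion gene, had 6.34, 4.42 and 3.18, highest in rat 12, and Ntng2, the other netrin-G gene, had 7.63, 8.22 and 11.3, highest in rat 33. Bhlhe22, a repressor of the same helix-loop-helix class, averaged 9.22 ± 2.03 (SD, n = 3).

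Interneuron genes had a median log2 range over rats of 0.43, against 0.61 over all genes tested, and 2 of 8 had a range of at least 1, a share near the 20.4% of all genes. Satb1, a chromatin organizer of somatostatin interneurons that excitatory neurons express too, reached 31.8 (rat 12), 23.7 (rat 24-4) and 13.1 FPKM (rat 33). Nxph1, a neurexin ligand of interneurons, had 17.2, 15.6 and 13.3, and Reln, the secreted layer-organizing protein reelin, had 11.2, 13.9 and 10.2. Satb1 was low in rat 33, and Nxph1 and Reln spanned 1.29-fold and 1.36-fold. Sox6, a factor of interneurons from the medial eminence and of oligodendrocyte precursors, had 2.61, 2.24 and 2.31. Adarb2, an RNA-binding protein of interneurons from the caudal eminence, had 3.32, 2.40 and 2.79. Sox6 spanned 1.16-fold and Adarb2 1.39-fold.

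Ndnf, which marks layer I neurogliaform cells, had 2.80, 1.69 and 2.52 in rats 12, 24-4 and 33, and Maf, a factor of medial-eminence interneurons and of microglia, averaged 4.86 ± 0.916 (SD, n = 3). Prox1, a homeobox factor of caudal-eminence interneurons and of dentate granule cells, had 2.84, 2.35 and 6.86, high in rat 33 alone. The dentate gyrus list of 6 genes gave summed FPKM of 31.3, 23.0 and 31.6, with C1ql2 at 0.859, 8.79 and 12.7, Plk5 at 19.97, 1.22 and 2.35 and Tdo2 listed at 0 in all rats, and its part in the Prox1 value was not tested. The deposited loci of Ndnf (1887 bp), Maf (1945 bp), Nxph1 (1951 bp) and Tshz2 (3054 bp) are short, and levels per kilobase depend on such gene models.

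Sequences upstream of 5 genes are shown because they belong to the 3 upper-layer genes of widest range that have an entry (Lamp5, Rorb and Wfs1) and to the 2 most abundant genes across layers (Neurod6 and Nrgn). Each is the 250 bases before the annotated start, 5′ to 3′ on the gene's strand, from RefSeq on GRCr8, at chr3:143824947-143825196 (plus strand) for Lamp5, chr1:225970974-225971223 (minus) for Rorb, chr14:78034955-78035204 (plus) for Wfs1, chr4:86180156-86180405 (minus) for Neurod6 and chr8:45452418-45452667 (minus) for Nrgn. The deposited row of Rorb, on another genome build (Rnor_6.0), is listed on the plus strand. Capitals mark E-boxes (CANNTG, read on both strands), the letters that helix-loop-helix factors such as Neurod1, Neurod6 and Bhlhe22 are known to bind.
Lamp5: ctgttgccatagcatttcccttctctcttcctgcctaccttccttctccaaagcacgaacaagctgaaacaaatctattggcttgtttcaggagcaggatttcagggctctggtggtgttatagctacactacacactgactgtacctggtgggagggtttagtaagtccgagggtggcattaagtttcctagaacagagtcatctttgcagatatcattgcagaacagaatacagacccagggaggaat
Rorb: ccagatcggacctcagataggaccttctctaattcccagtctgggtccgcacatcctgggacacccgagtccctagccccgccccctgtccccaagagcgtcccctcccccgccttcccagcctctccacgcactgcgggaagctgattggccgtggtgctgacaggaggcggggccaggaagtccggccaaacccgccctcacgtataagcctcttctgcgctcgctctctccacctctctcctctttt
Wfs1: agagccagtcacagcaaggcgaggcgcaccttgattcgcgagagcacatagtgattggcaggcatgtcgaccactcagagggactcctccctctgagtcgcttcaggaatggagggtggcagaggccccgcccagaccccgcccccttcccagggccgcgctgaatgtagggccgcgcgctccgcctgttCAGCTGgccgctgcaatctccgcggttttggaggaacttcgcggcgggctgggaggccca
Neurod6: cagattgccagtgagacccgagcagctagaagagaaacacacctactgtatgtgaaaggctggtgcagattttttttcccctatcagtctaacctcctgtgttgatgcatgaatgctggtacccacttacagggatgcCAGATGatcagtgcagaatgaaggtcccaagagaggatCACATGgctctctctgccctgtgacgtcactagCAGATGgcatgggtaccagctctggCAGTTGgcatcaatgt
Nrgn: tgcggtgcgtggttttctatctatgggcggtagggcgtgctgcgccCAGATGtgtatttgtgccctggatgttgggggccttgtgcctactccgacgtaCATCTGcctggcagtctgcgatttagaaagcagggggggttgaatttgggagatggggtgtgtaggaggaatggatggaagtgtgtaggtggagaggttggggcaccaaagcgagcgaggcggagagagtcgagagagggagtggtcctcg
Lamp5 and Rorb held no such letters in this window, Wfs1 held 1 match, Nrgn 2 and Neurod6 4. Of the Neurod6 matches, 2 had the form CAGATG (either strand), as had both of Nrgn.

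Promoter entries were matched for 26 of the 42 listed genes, in 27 rows because Cux1 has 2. An E-box lay in 55.6% of the 27, against 65.5% of all 33469 promoters, and CAGATG, which is a form of the E-box, lay in 11.1% against 14.0%. The homeobox core TAATTA was found in 2 (Tbr1 and Sox6) and 4.86% of all, TATAAA in 1 (Foxp1) and 12.9%, and the cAMP response element TGACGTCA in 1 (Neurod6) and 1.59%. The T-box motif GGTGTGA was found in 0 of 27 and 3.22% of all, which says nothing of the factor. The GC box GGGCGG was present in 55.6% of the 27 and in 30.5% of all promoters. Median GC content was 59.6%, between 41.6% for Rasgrf2 and 80.0% for Reln, against 51.2% over all promoters. These matches describe letters, with both strands read for every motif.

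Group medians put the upper-layer genes above the deep-layer genes in rat 12 and below them in the other rats. On the log2(FPKM + 1) scale, the median over upper-layer genes was 4.65 in rat 12, 3.57 in rat 24-4 and 2.44 in rat 33, and over deep-layer genes 3.65, 3.80 and 3.17. The difference, upper minus deep, was 0.996, -0.22 and -0.73, with a mean of 0.01 ± 0.89 (SD, n = 3). On the narrower lists, which still held Sulf1, it was 0.73, -1.16 and -0.32 in the same order. These were 2 upper-layer and 13 deep-layer genes, and rats 24-4 and 33 changed places. On the full lists, the median across layers was 3.34 ± 0.11, the smallest SD of the groups, and that of interneuron genes 2.41 ± 0.42. Interneuron minus deep was below 0 in each rat, at -1.32, -1.76 and -0.31. On the narrower lists the interneuron median had the smallest SD, 0.08, against 0.18 across layers.

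**Figure D2:**
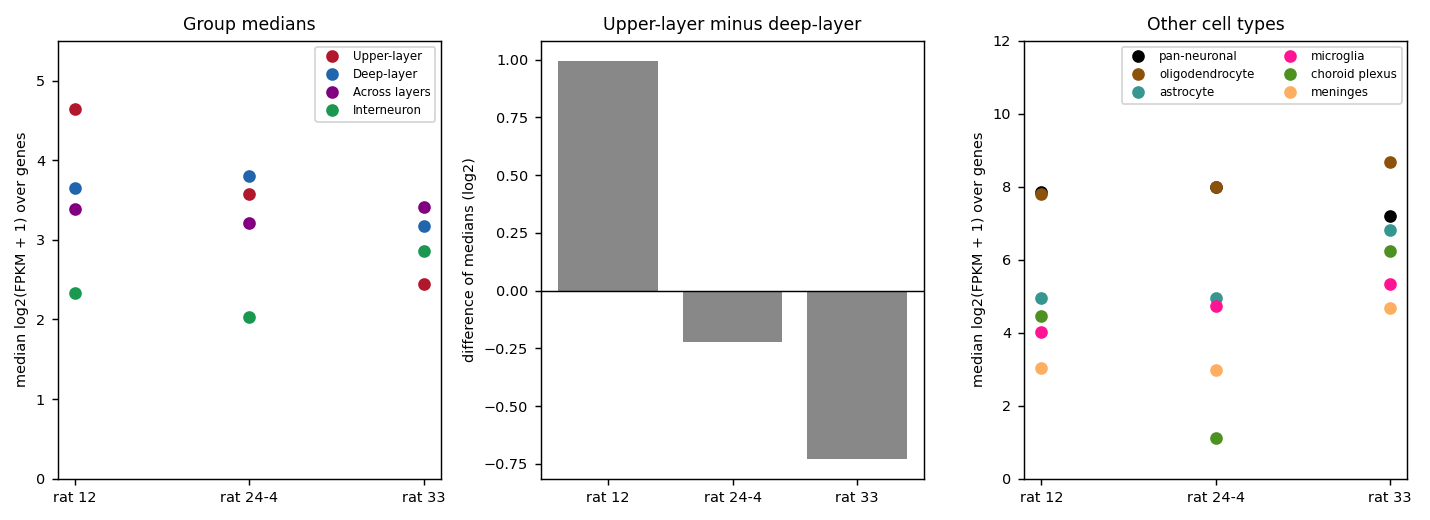
Left, median log2(FPKM + 1) over the genes of each group in each rat; middle, the upper-layer minus deep-layer difference of those medians, as bars from 0; right, the same median for lists of other cell types. The difference is 0.996 in rat 12 and negative in rats 24-4 and 33, while oligodendrocyte and microglial medians are highest in rat 33.

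Counted gene by gene, 21 of 41 genes were highest in rat 12, against 23.8% of all genes tested, and 19 were lowest in rat 33, against 28.9%. Outside the 41, 7 of 14 general neuronal genes were highest in rat 12 and 11 lowest in rat 33. For 7 general genes of glutamatergic (excitatory) neurons these counts were 4 and 6, so neither trait was particular to the 41. By group, 6 of 7 upper-layer, 5 of 17 deep-layer, 5 of 9 across-layer and 5 of 8 interneuron genes were highest in rat 12. In rat 24-4, 13 genes were highest (34.2% of all genes), of which 10 were deep-layer genes, and in rat 33 there were 7 (42%). Rat 24-4 was lowest for 16 genes (33.3%) and rat 12 for 6 (37.9%). The order of rats 24-4, 12 and 33 from high to low held for 8 genes (17.7% of all genes), 6 of them deep-layer (Fezf2, Bcl11b, Rprm, Tshz2, Lmo3 and Ppp1r1b), with Wfs1 and Reln. The order 12, 24-4, 33 held for 11 genes (11.2%) and 12, 33, 24-4 for 10 (12.6%). Crym, Nxph4, Zfpm2, Ldb2 and Neurod6 had the order 24-4, 33, 12 (16.6%), and Tle4, Sulf1, Neurod1, Emx2, Maf and Prox1 the order 33, 12, 24-4 (20.7%). Ntng2 was alone in the order 33, 24-4, 12, which 21.3% of all genes had.

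The same counts were also made relative to general neuronal genes, a scaling that shifts all genes of a rat alike and so moves the counts of all genes with it. With each value taken relative to the median of 14 pan-neuronal genes in the same rat, 13 of 41 genes were highest in rat 12 (7.00% of all genes), 6 in rat 24-4 (4.55%) and 22 in rat 33 (88.4%). Of the 7 upper-layer genes, 5 were highest in rat 12, and 7 of 8 interneuron genes were then highest in rat 33. On that scale 9 of 41 were lowest in rat 33 (4.21% of all genes), 21 in rat 24-4 (51.0%) and 11 in rat 12 (44.8%).

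**Figure D3:**
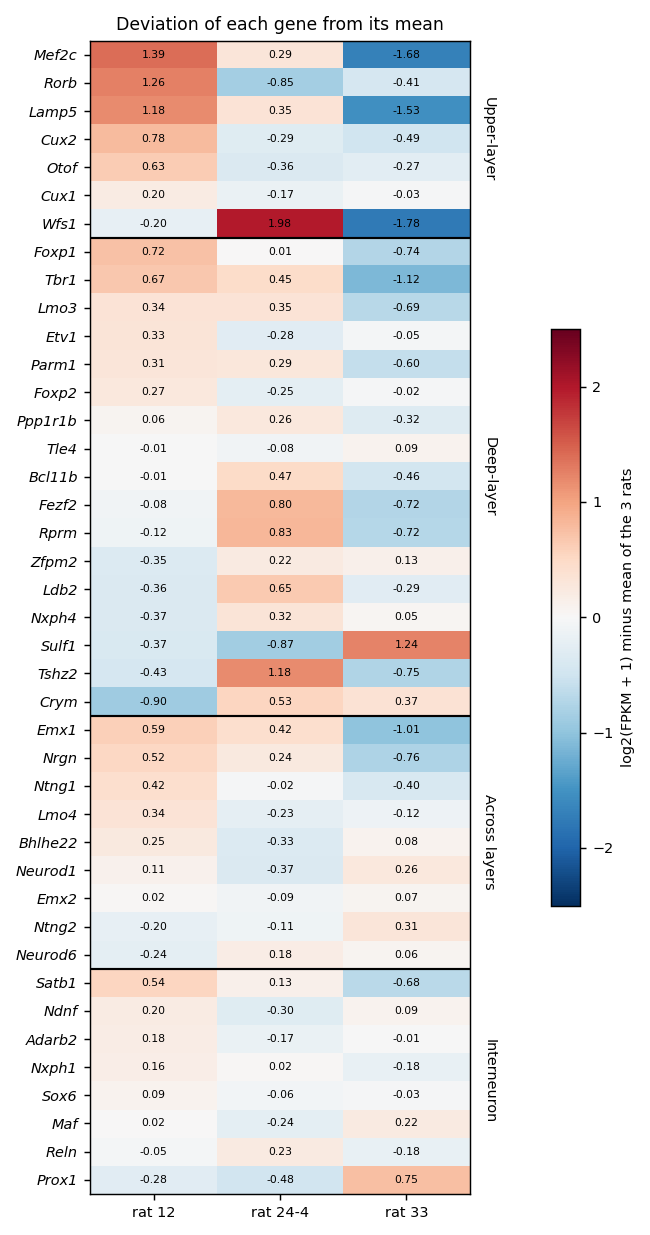
Deviation of log2(FPKM + 1) from the mean of the 3 rats for each of 41 genes, with red above and blue below the mean and the value printed in each cell. Wfs1 deviates by 1.98 in rat 24-4 and -1.78 in rat 33, and 6 of 7 upper-layer genes are positive in rat 12.

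The range over rats was at least 1 on the log2(FPKM + 1) scale in 18 of 41 genes, against 20.4% of all genes tested, with a median range of 0.90 against 0.61. It was at least 1 in 5 of 7 upper-layer, 9 of 17 deep-layer, 2 of 9 across-layer and 2 of 8 interneuron genes. Outside the 41, such a range was seen in 8 of 14 general neuronal genes and 5 of 7 general genes of glutamatergic (excitatory) neurons. Wide ranges were therefore not particular to layer and subtype genes. Ranges of Wfs1 (3.75), Mef2c (3.07) and Lamp5 (2.71) held ranks 28, 64 and 102 of 13754. At the other end Sox6 (0.15), Emx2 (0.16) and Tle4 (0.17) held ranks 13137, 13117 and 13010.

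Ranking all genes by how far 1 rat stood above the next put different members forward in each animal. In rat 12, Rorb stood 1.67 above rat 33 on the log2 scale, at rank 11, followed by Mef2c at rank 82 and Cux2 at rank 88. In rat 24-4, Wfs1 stood 2.18 above rat 12, at rank 4, and Tshz2 1.60 above, at rank 10, followed by Rprm at rank 69, Ldb2 at rank 74 and Fezf2 at rank 91. Rat 33 stood out by low values, with Mef2c 1.98 below the next rat at rank 10, Lamp5 1.88 below at rank 13, Tbr1 at rank 37 and Wfs1 at rank 38. Crym, 1.26 below the next rat in rat 12, had rank 72 there. These ranks describe the 3 libraries and are not tests.

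**Figure D4:**
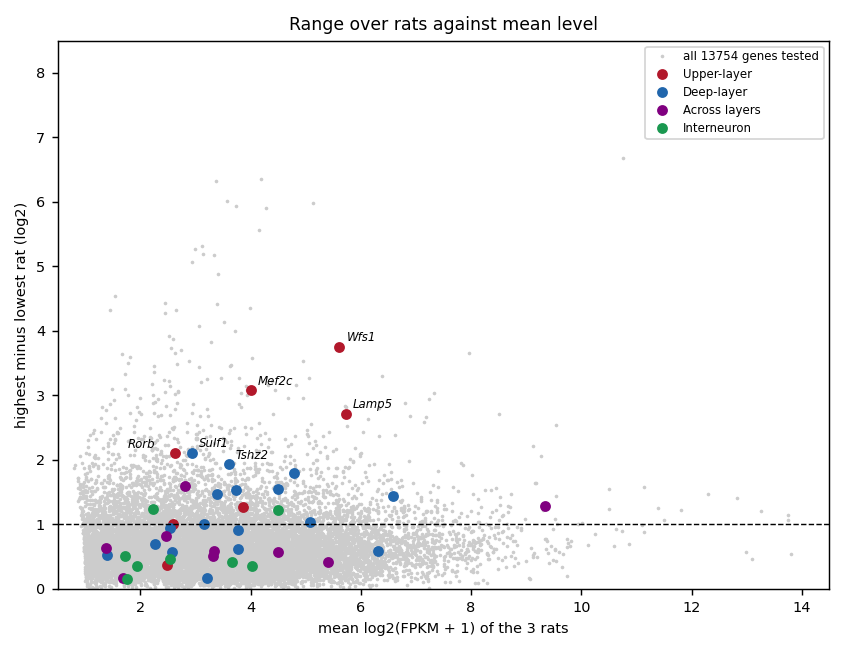
Log2 range between the highest and lowest rat against mean log2(FPKM + 1), in grey for all 13754 genes tested and in colour for the 41 layer and subtype genes, with a dashed line at 1. Wfs1, Mef2c and Lamp5 lie highest, and interneuron genes mostly under the line.

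None of the 41 genes passed the test of variability over all genes, which with 3 rats does not show that they were stable. The limma fit, which sets each gene's variance over rats against the variance of genes at a similar level, called 14 of 13754 genes (0.102%) at an adjusted p under 0.05, and 0 of 41 here. Of the 14, 6 were on the choroid plexus list (Ttr, Sostdc1, Kcnj13, Clic6, Kl and Slc4a5). At an unadjusted limma p under 0.05 there were 10 of 41, against 5.96% of all genes. These were Lamp5, Rorb, Mef2c and Wfs1 of the upper layers, Tbr1, Fezf2, Rprm, Tshz2 and Sulf1 of the deep layers, and Emx1. The lowest limma adjusted p-values were 0.148 for Wfs1, 0.202 for Mef2c and 0.381 for Lamp5. With libraries scaled to equal medians, a shift of -0.08 to 0.05 in log2, limma called Wfs1 (adjusted p = 0.0238) and Mef2c (0.0394). Without rat 12 it called Wfs1 (adjusted p = 4.63e-05), and without rat 33 Rorb (adjusted p = 0.0190), each with a prior estimated anew. Each of these calls rests on a single difference between the remaining rats. The prior's degrees of freedom, its weight in the test, went from 7.96 to 46.0 without rat 12 and to infinity without rat 33. The lowest limma adjusted p of the 41 was 0.909 without rat 24-4. It was 0.140 with a pseudocount of 0.1, 0.389 with the filter at a mean of 0.1 and 0.985 with no filter. Without the mitochondrial genome it was 0.548, and 0.279 with a prior that is not robust.

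Values that stood beside the Wfs1 result came from 5 hippocampal pyramidal genes, a list chosen after the Wfs1 value was seen. Fibcd1 was listed at 0 in all rats, and Spink8 had 0.223, 0 and 0.264 and Zbtb20 0.188, 0.737 and 0.338 in rats 12, 24-4 and 33. Mpped1, which cortical neurons also express, had 56.5, 85.5 and 15.1, with the order of Wfs1, and Grik4 had 11.6, 18.3 and 31.9. For Mef2c, the microglial list gave summed FPKM of 191, 316 and 543 in rats 12, 24-4 and 33. The part of either cell type in the Wfs1 and Mef2c values was not tested.

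Within rats, related genes differed by amounts that kept their sign in 12 of 14 pairs. Neurod6 exceeded Neurod1 by 4.03 ± 0.48 on the log2(FPKM + 1) scale (SD, n = 3, here and below), Foxp1 exceeded Foxp2 by 1.995 ± 0.63 and Crym exceeded Rprm by 2.09 ± 0.97. Reln was above Ndnf by 1.94 ± 0.46, Fezf2 above Bcl11b by 1.19 ± 0.30 and Tbr1 above Fezf2 by 1.06 ± 0.65. For Cux1 minus Cux2 the difference was -1.39 ± 0.53, for Lmo4 minus Lmo3 -0.59 ± 0.57, and for Sox6 minus Adarb2 -0.17 ± 0.10, the smallest of the pairs with a single sign. Ntng2 minus Ntng1 was 0.85 ± 0.67.

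Pair differences moved both ways in rat 33. Crym minus Rprm (1.31 in rat 12, 1.79 in rat 24-4, 3.17 in rat 33) and Ntng2 minus Ntng1 (0.23, 0.77 and 1.56) were widest there. Satb1 minus Prox1 was 3.09 in rat 12, 2.89 in rat 24-4 and 0.85 in rat 33, and Emx1 minus Emx2 was 1.68, 1.62 and 0.04, both smallest in rat 33. Cux2 minus Fezf2, an upper-layer against a deep-layer factor, was 0.996, -0.96 and 0.37, and Tle4 minus Fezf2 was -0.45, -1.40 and 0.30, so neither kept a sign. The exact two-sided sign-flip test gave p = 0.25 for each of the 12 pairs of constant sign (0.292 adjusted over 14 pairs), the smallest value that 3 rats allow, so none could pass 0.05.

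**Figure D5:**
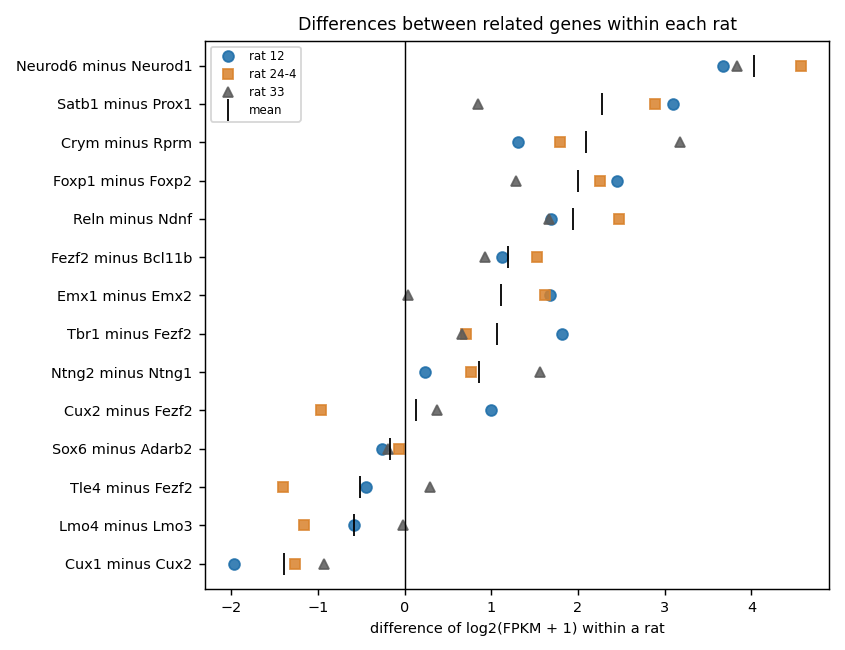
Difference of log2(FPKM + 1) between the genes of 14 pairs within each rat, 1 marker per rat, with the mean of the 3 rats as a black bar and a line at 0. Neurod6 minus Neurod1 is the largest at 4.03 ± 0.48, and Cux2 minus Fezf2 and Tle4 minus Fezf2 lie on both sides of 0.

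Further genes of the same kinds, from lists outside the 41, were read beside them. Of 15 other upper-layer genes, 13 were tested. Of these, 10 were highest in rat 12 (23.8% of all genes tested) and 10 lowest in rat 33 (28.9%). A log2 range of at least 1 was seen in 8 (20.4%). Limma's adjusted p was passed by 0 (0.102%), while 5 had an unadjusted p under 0.05 (5.96%). Calb1, which encodes calbindin, reached 57.1 (rat 12), 14.7 (rat 24-4) and 16.1 FPKM (rat 33). Plcxd2, a phospholipase-like gene, had 30.3, 13.0 and 10.5. Kcnh5, a potassium channel gene, had 4.63, 2.02 and 0.329. All 3 were highest in rat 12.

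Of 18 other deep-layer genes, 14 were tested, 5 were highest in rat 24-4, 3 in rat 12 and 6 in rat 33. Rat 24-4 was lowest for 7 (33.3% of all genes tested), rat 33 for 5 (28.9%) and rat 12 for 2 (37.9%). A log2 range of at least 1 was seen in 2 (20.4%). So the pattern of the 17 deep-layer genes, 10 highest in rat 24-4 and 9 with such a range, did not recur in this list. Limma called 0 of the 14 (0.102% of all genes), with 2 at an unadjusted p under 0.05 (5.96%). Pcp4, a calmodulin regulator, reached 206 (rat 12), 256 (rat 24-4) and 163 FPKM (rat 33). Htr2c, a serotonin receptor that choroid plexus expresses strongly, had 12.6, 4.71 and 44.8, in the order of the choroid plexus genes, whose part was not tested. The nuclear receptor gene Nr4a2 had 14.8, 4.59 and 14.9, low in rat 24-4 alone.

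Of 22 other interneuron genes, 20 were tested, 9 were highest in rat 24-4, 8 in rat 12 and 3 in rat 33, and 13 were lowest in rat 33. Limma called 0 of the 20 (0.102% of all genes), with 3 at an unadjusted p under 0.05 (5.96%). The neuropeptide gene Sst reached 135 (rat 12), 236 (rat 24-4) and 125 FPKM (rat 33), and the calcium-binding Pvalb had 158, 149 and 51.8. Vip, a peptide of caudal-eminence interneurons, had 21.6, 14.2 and 5.38, and Nr2f2, a nuclear receptor of the same interneurons and of vessel cells, had 4.86, 2.44 and 17.4. Pvalb and Vip were low in rat 33, where Nr2f2 was high.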

How the data were processed

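The deposited values were FPKM, 1 file per rat, per the file headers, with coordinates on Rnor_6.0. Per the labels and design text, the authors took counted, normalized fragments and computed FPKM with a script. The submitters' processing notes name HISAT2 (2.0.4) and StringTie (1.3.0). How strand and scaling were set was not given in the sources used here. An abundant transcript lowers every other FPKM of its library. Genes at 0 in all rats numbered 11974. Depth came from the steps between low values at loci up to 400 bp, of which 93.1% to 93.4% were whole fragments within 0.02. Intervals cover counting error only.

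The scale was log2(FPKM + 1), on which changes of low genes are understated. Genes averaging an FPKM of 1 or more entered an intercept fit in limma (3.58.1, under R 4.3.3), whose prior was trended and robust. Residual variance was compared with its prior by an F distribution, one-sided, with Benjamini-Hochberg adjustment. The step was also run on data simulated from its own fitted prior, where it missed the smallest of the changes put in. Pairs were tested with an exact sign-flip test over rats. Other steps used Python 3.11.15, pandas 2.3.3 and scipy 1.17.1. The members and lists were chosen with earlier results of these data known. Values by rat were given for the 3 highest, lowest and widest genes of each group, both genes of each pair, and the highest and widest genes of the other lists. The rats are separate animals, and p-values measure the spread between them.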

Additional observations from a re-analysis of the deposited data

How the results depend on the processing

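Levels of the upper-layer, deep-layer and interneuron groups moved by less than their SD between rats (1.10, 0.33 and 0.42) under every alternative tried. Leaving out 1 of 3 rats cannot move a mean that far, and requiring a mean FPKM of at least 1 removed no gene. Those settings could therefore not show instability by this rule. The upper-layer level, 3.55, was 3.01 without rat 12 and 4.11 without rat 33. The across-layer level, 3.34, was 3.20 with a pseudocount of 0.1 and 3.80 as a mean over genes. Genes called variable by limma numbered 14, against 23 with a pseudocount of 0.1, 54 with equal medians, and 0 with the filter at a mean of 0.1, no filter, the mitochondrial genome left out or a prior that is not robust (903, 864, 683 and 733 at an unadjusted p under 0.05). With a rat left out they ranged from 0 to 104. Of the layer and subtype genes, 0 were called, against 2 with equal medians and 0 to 1 with a rat left out. Relative to the pan-neuronal median, 13 in place of 21 genes were highest in rat 12, where the share of all genes went from 23.8% to 7.00%. Likewise 9 in place of 19 were lowest in rat 33, where that share went from 28.9% to 4.21%. The lower counts are therefore not a weaker departure from all genes. Cux2 minus Fezf2, 0.13 on average, was -0.30 without rat 12 and 0.68 without rat 24-4, and the other pairs kept their sign under each alternative. Upper minus deep ranged from -0.48 without rat 12 to 0.39 without rat 33. The cause of these changes was not tested. No paired analysis was possible because the labels give a single group. With 3 rats, the sign-flip test cannot go below 0.25, and genes near an FPKM of 1 rest on few fragments per kilobase.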

Other observations

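Ranking all tested genes by their excess in rat 24-4 placed 2 layer genes, Wfs1 and Tshz2, among the first 10. Genes given here were chosen after their values were seen. They include Nts, the precursor of neurotensin, with an FPKM of 0.901, 13.5 and 0.168 in rats 12, 24-4 and 33. Htr5b, a serotonin receptor gene, had 0.705, 6.37 and 0.173, and Klk8, a secreted serine protease gene of the brain, had 0.353, 4.596 and 0.469. None of these passed limma's adjusted p (0.174 for Nts, 0.416 for Htr5b and 0.584 for Klk8).

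In rat 12, Plk5, a gene of the dentate gyrus list, led the same ranking with 19.97 in rat 12, 1.22 in rat 24-4 and 2.35 in rat 33. Gabrb2, a GABA receptor subunit, had 50.3, 14.6 and 9.30. Calb1 was also among the first 10 in rat 12, at rank 8, and Rorb had rank 11. No layer or subtype gene was among the first 10 by excess in rat 33, where Glycam1 led with 2.20, 1.07 and 165 in rats 12, 24-4 and 33, and Sulf1 was the foremost of the 41 at rank 118.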
